A study of Mus musculus with 8 samples.

Results

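Ribosome footprints of mouse embryonic stem cells were compared between cells given an siRNA against Lin28a and cells given an siRNA against luciferase. The comparison used 2 of the 8 libraries of the series, 1 library per condition, and took the 6323 of 7936 transcripts of the footprint table that had at least 200 footprint counts summed over both libraries. All cells were of the A3-1 line, grown with serum and leukemia inhibitory factor, and no genotype or passage is given in the labels. The siRNA against luciferase (siLuc), a gene that mouse cells lack, and the siRNA against Lin28a (siLin28a) were each left for 48 h. The other 6 libraries were poly(A) RNA-seq of untreated, siLuc and siLin28a cells (1 library each) and 3 LIN28A CLIP-seq libraries of cells without siRNA (1 library per antibody). With 1 library per condition no p-value can be given, and every interval printed here covers counting error only, not the spread between cultures.

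Ribosome profiling sequences the short mRNA fragments that a translating ribosome shields from nuclease, so the footprint count of a transcript follows both how much of the mRNA is present and how densely ribosomes occupy it. LIN28A is a cytoplasmic RNA-binding protein of pluripotent cells with a cold shock domain and CCHC zinc knuckles. It binds the precursors of let-7 microRNAs and blocks their maturation, and it also binds many mRNAs. Proteins that are secreted, or that enter the membranes of the cell surface, Golgi or lysosome, are made by ribosomes docked at the endoplasmic reticulum (ER), where a signal recognition particle (SRP) delivers them to the Sec61 channel, while nuclear, cytosolic and most mitochondrial proteins are made by ribosomes free in the cytosol.

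The 2 siRNA duplexes define the groups, and the labels give both strands of each but not which strand guides the knockdown. They are printed with bases 2 to 8, the seed positions, in capitals and without the deoxythymidine ends.
siLin28a, strand 1: aUGUUCUUcccuuuuggcc
siLin28a, strand 2: gGCCAAAAgggaagaacau
siLuc, strand 1: uCGAAGUAcucagcguaag
siLuc, strand 2: cUUACGCUgaguacuucga
Each strand was the exact reverse complement of its partner over 19 bases, and none of the 4 shared its bases 2 to 8 with a mature mouse microRNA of the RefSeq table (GRCm38.p6). A pair of let-7 family members are shown because LIN28A binds their precursors and because a list of let-7 target mRNAs is described further on.
mmu-let-7g-5p: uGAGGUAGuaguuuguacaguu
mmu-let-7f-5p: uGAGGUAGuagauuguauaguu
Their seed, again in capitals, was shared by 11 mature microRNAs of that table.

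The footprint libraries held 7570209 counts (siLuc) and 5980673 counts (siLin28a), and the tested transcripts held 98.5% and 98.7% of them. The 3 poly(A) libraries held 7475174 to 9605641 exon counts and the 3 CLIP libraries 7698479 to 8027670. Levels are given as CPM, the counts of a transcript scaled to the total of its library. The footprint change of a transcript is the log2 ratio of its siLin28a to its siLuc CPM after adding 0.5 counts, centred on the median of the 6323 transcripts, which lay at −0.21 by column totals. The mRNA change is the same ratio from the poly(A) exon counts, by column totals, where the median of the same transcripts lay at −0.02. The median half-width of the 95% counting interval of a footprint change was 0.22, with 0.39 for transcripts of 200 to 300 counts and 0.097 for those of 2000 counts or more.

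Lin28a, on chromosome 4 at 133559245 to 133574731 (mm9), was lower in the siLin28a libraries of both assays. Its footprints were 119 CPM with siLuc and 30.4 CPM with siLin28a (898 and 182 counts). The footprint change was −1.75 (95% counting interval −1.99 to −1.52) and −1.96 by column totals. Its poly(A) level was 465 CPM untreated, 354 with siLuc and 118 with siLin28a, an mRNA change of −1.58 (−1.68 to −1.48). Poly(A) counts that appear to cover coding sequence only gave −1.19. The library labelled siLin28a was thus the one with fewer Lin28a reads in each assay. Lin28b, the paralog, is not among the transcripts of the footprint table.

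Footprints spread more widely than mRNA between the conditions. Of the 6323 transcripts, 527 (8.33%) had at least 2-fold more footprints with siLin28a relative to the median transcript, and 262 (4.14%) at least 2-fold fewer. By column totals the same limits gave 243 (3.84%) and 578 (9.14%), so the split between higher and lower depends on where 0 is set. The mRNA of the same transcripts passed 2-fold less often, with 56 of 6322 (0.886%) higher and 27 (0.427%) lower. The scaled median absolute deviation of the log2 changes was 0.63 for footprints and 0.33 for mRNA. Counting error alone was smaller than most footprint changes. The interval lay wholly above 0 for 2274 transcripts and wholly below 0 for 2229, and wholly past 2-fold for 284 and 89. Near the count limit, 94 transcripts of 200 to 209 counts had a median change of −0.21 (range −1.38 to 1.44), and 99 left out at 190 to 199 counts had 0.05 (range −1.23 to 1.64).

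**Figure D1:**
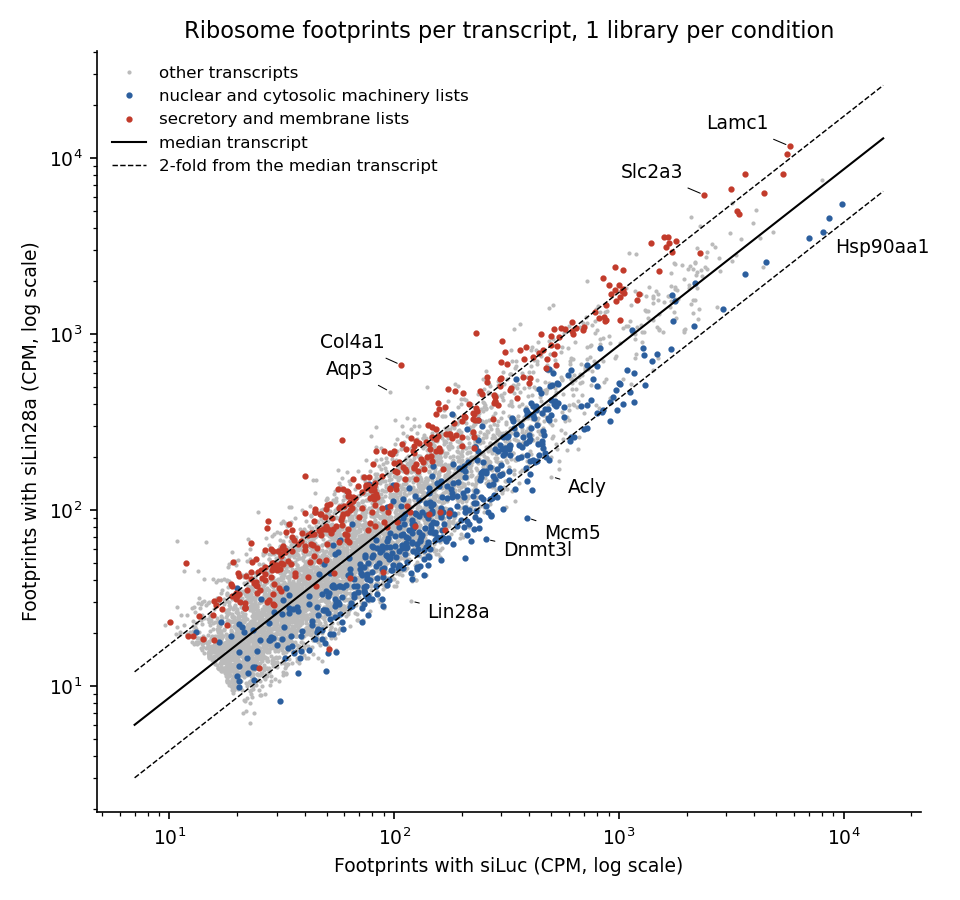
Footprint level of each of the 6323 tested transcripts with siLuc (horizontal) and siLin28a (vertical), in CPM on log axes, 1 point per transcript. Members of the secretory and membrane lists (red) lie mostly above the line of the median transcript and members of the nuclear and cytosolic machinery lists (blue) mostly below it; dashed lines mark 2-fold.

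The transcripts with the highest footprint changes encode mostly secreted and membrane proteins. Col4a1 (chromosome 8, 11198423 to 11312826, mm9), a chain of basement membrane collagen IV, had 107 CPM of footprints with siLuc and 667 with siLin28a, a change of 2.85 (2.74 to 2.96), or 7.22-fold. Its poly(A) level was 16.4 CPM untreated, 16.3 with siLuc and 46.9 with siLin28a, an mRNA change of 1.52. Atp2a3, a calcium pump of the ER membrane, had 10.8 and 66.4 CPM of footprints, a change of 2.82 (2.48 to 3.19), with an mRNA change of 2.05. Aqp3, a plasma membrane channel for water and glycerol, had 96.2 and 469.7 CPM and a change of 2.50 (2.38 to 2.62). For these 3 genes the untreated and siLuc poly(A) levels lay close together and the siLin28a level stood apart; for Aqp3 they were 33.1, 30.6 and 77.8 CPM.

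The rest of the 15 highest kept to the same kinds of protein. They were Grin1 (an NMDA receptor subunit, 2.38), A2m (a secreted protease inhibitor, 2.36), Col11a1 (fibrillar collagen, 2.30), Adamts9 (a secreted metalloprotease, 2.28), Crtac1 (a secreted cartilage protein, 2.18) and Col9a2 (collagen IX, 2.18). Below them stood Tlr2 (a cell-surface innate immune receptor, 2.16), Ptgfrn (a surface immunoglobulin protein, 2.05), Pcsk6 (a proprotein convertase, 2.05), Gpr126 (an adhesion receptor, 1.98), Cds1 (a lipid enzyme of the ER membrane, 1.96) and Kirrel (an adhesion protein, 1.96). The lowest bound of any of their counting intervals was 1.63. All 15 also had more mRNA with siLin28a, by 0.40 to 2.05 (median 1.06), and in each the footprint change exceeded the mRNA change. The 15 were picked by footprint change, which favours that excess, so it is no separate result. A2m footprints were 230 and 1017 CPM while its poly(A) levels were 65.2, 97.7 and 207 CPM (untreated, siLuc, siLin28a).

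The lowest changes belonged to nuclear and cytosolic proteins. Mcm5 (chromosome 8, 77633427 to 77652338, mm9), a subunit of the replicative helicase, had 392 CPM of footprints with siLuc and 90.5 with siLin28a, a change of −1.90 (−2.04 to −1.77). Its poly(A) level was 829 CPM untreated, 690 with siLuc and 449 with siLin28a, an mRNA change of −0.62. Bms1, a GTPase of small ribosomal subunit assembly, had 49.9 and 12.2 CPM (−1.81), and Nars, the cytosolic asparaginyl-tRNA synthetase, 208 and 53.7 CPM (−1.73). Dnmt3l (chromosome 10, 77505032 to 77526360, mm9), the cofactor of the de novo DNA methyltransferases, had 257 and 68.2 CPM, a change of −1.70 (−1.86 to −1.55), with poly(A) levels of 305, 333 and 181 CPM.

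Besides these and Lin28a, the lowest 15 held Unc45a (a myosin and Hsp90 co-chaperone, −1.70), Ppig (a nuclear cyclophilin, −1.66), Rbm28 (a nucleolar protein, −1.59), Tiam1 (a Rac exchange factor, −1.57), Xrcc6 (Ku70, −1.56), Sdccag1 (−1.53), Mcm4 (−1.52), Dnmt3b (−1.50), Cstf3 (an mRNA 3′ end processing factor, −1.49) and Ctnnal1 (−1.49). The bound nearest to 0 among their intervals was −1.05. Their mRNA changes ran from −1.58 to 0.02, with 14 of 15 below 0. Unc45a was the exception, with poly(A) levels of 83.4, 83.1 and 84.0 CPM against footprints of 31.2 and 8.19 CPM.

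**Figure D2:**
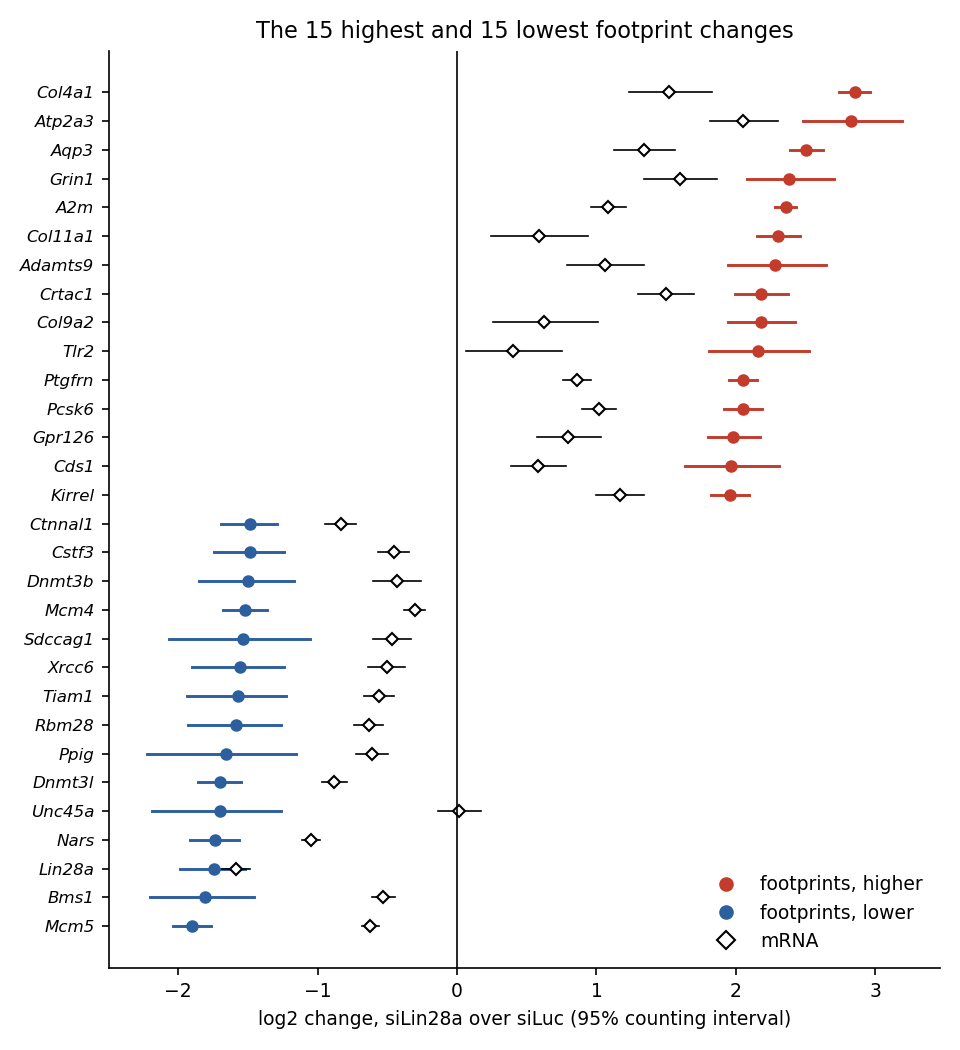
Log2 change, siLin28a over siLuc, of the 15 transcripts with the highest and the 15 with the lowest footprint change (filled points, centred on the median transcript) and of their mRNA (open diamonds, by column totals), with 95% counting intervals. Footprint changes run from 1.96 to 2.85 and from −1.90 to −1.49. On these scales 29 of the 30 exceed their mRNA change in size with intervals that do not meet, and for Lin28a they overlap. The 30 were picked by footprint change, which favours such an excess. With column totals for both, the intervals of Lin28a do not meet, while those of Atp2a3 and Grin1 do.

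The 10 lists of secreted, membrane and lysosomal proteins and of the apparatus that makes them were joined as the secretory and membrane lists, which also hold some cytosolic members named below, and the 12 lists of nuclear and cytosolic machinery as the machinery lists; members and lists were chosen with earlier results of these data known, so the counts describe these libraries. Of 374 tested transcripts of the secretory and membrane lists, 155 passed 2-fold upwards and 1 downwards, with a median of 0.93 and 360 above 0. By column totals 75 passed upwards and 3 downwards, with a median of 0.71 and 355 above 0. They took 11.5% of all footprints with siLuc and 20.2% with siLin28a. Their median mRNA change was 0.06. Outside these lists, 372 of 5949 were 2-fold higher and 261 2-fold lower, with a median of −0.04. Of all 527 transcripts that were 2-fold higher, 155 (29.4%) were in these lists, and of the 262 that were 2-fold lower 1 (0.38%) was. By column totals it was 75 of 243 higher and 3 of 578 lower. The lists held 374 of the 6323 transcripts tested.

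By column totals 3.84% of all transcripts were at least 2-fold higher. In the lists described next, matrix proteins had 12 of 22, collagen-modifying enzymes 2 of 13 and ER chaperones 2 of 28. The SRP and translocon list had 1 of 32, and glycan and GPI anchor enzymes 4 of 26. Lysosomal proteins had 7 of 32, receptors 19 of 56, solute carriers 21 of 87 and TMEM proteins 6 of 63. Vacuolar ATPase subunits had 1 of 16, and the SRP and translocon count lay near the share of all transcripts.

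Basement membrane and matrix proteins, the scaffold that embryonic epithelia and stem cells secrete, had 18 of 22 members at least 2-fold higher and a median of 1.26. The list took 2.90% of footprints with siLuc and 5.94% with siLin28a, an exact binomial interval of 5.92% to 5.96%. Lamc1, the laminin γ1 chain, had 5757 and 11678 CPM of footprints (change 1.23) with poly(A) levels of 1156, 964 and 1221 CPM. Fn1, fibronectin, had 5617 and 10559 CPM (1.13) with poly(A) levels of 3560, 3170 and 4146 CPM. Hspg2, perlecan, had 3657 and 8104 CPM (1.36), and its mRNA change of 0.77 was larger than the list's median of 0.38. Lama3, the laminin α3 chain, was the 1 member that was lower. Its footprints were 51.1 and 16.2 CPM (−1.44, −1.78 to −1.12) and its mRNA change, −1.40, was of nearly the same size.

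Enzymes that hydroxylate, crosslink and export collagen were higher as well, with 8 of 13 at least 2-fold higher, all 13 above 0 and a median of 1.06. P4hb, which serves as both a prolyl hydroxylase subunit and a disulfide isomerase, had 4428 and 6346 CPM (0.73) with an mRNA change of 0.07. The highest were Loxl2 (a lysyl oxidase, 1.45) and P4ha1 (the catalytic subunit of prolyl 4-hydroxylase, 1.29). Proteins that fold others in the ER were higher too. All 28 ER chaperones and disulfide enzymes were above 0 (0.42 to 1.35, median 0.78), 7 of them at least 2-fold, with a median mRNA change of 0.02. Hsp90b1, the ER form of Hsp90, had 5398 and 8102 CPM (0.80, 0.78 to 0.82), while its poly(A) levels were 801, 1255 and 1012 CPM. Hspa5 (BiP), the ER Hsp70, had 3345 and 4979 CPM (0.79), with poly(A) levels of 610, 673 and 845 CPM.

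Proteins that insert and glycosylate new chains followed. The 32 members of the SRP, translocon and oligosaccharyltransferase list had a median of 0.78, with 4 at least 2-fold higher and 0 lower. Rpn2, an oligosaccharyltransferase subunit, had 1049 and 1709 CPM (0.92). Tusc3, another subunit, had the highest change, 1.31, with an mRNA change of 0.08. Enzymes that build glycan precursors and GPI anchors had 12 of 26 at least 2-fold higher and a median of 0.98. Within that list Alg13, which acts on the cytosolic face of the ER, stood apart at −0.76 (mRNA −0.96).

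Lysosomal proteins, which pass through the ER and Golgi, were all above 0 (32 of 32, 0.45 to 1.45, median 0.99), with 16 at least 2-fold higher and a median mRNA change of 0.03. Lamp2, a lysosomal membrane protein, had 158 and 373 CPM of footprints (1.45, 1.35 to 1.56), while its poly(A) levels were 74.6, 82.4 and 71.8 CPM, an mRNA change of −0.20. Psap, the precursor of the saposins, had 1669 and 3311 CPM (1.20) with an mRNA change of 0.18.

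Receptors and adhesion proteins of the plasma membrane had 34 of 56 at least 2-fold higher, 56 of 56 above 0 and a median of 1.10, with a median mRNA change of 0.22. Fzd5, a Wnt receptor, had 174 and 487 CPM (1.70) with poly(A) levels of 359, 269 and 348 CPM. Celsr1, a planar polarity cadherin, had a change of 1.62 with an mRNA change of 1.02. Fat1, an atypical cadherin, had 1587 and 3551 CPM (1.38). The lowest of the list were Ptch1, the hedgehog receptor (0.27, mRNA −0.60), and Tfrc, the transferrin receptor (0.46, mRNA −0.24).

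Solute carriers outside the mitochondrial family had 34 of 87 at least 2-fold higher, 83 above 0 and a median of 0.88, with a median mRNA change of 0.03. Slc2a3, a glucose transporter, had 2394 and 6174 CPM (1.58) with poly(A) levels of 1619, 1663 and 2247 CPM. Slc36a1, a proton-coupled amino acid transporter, was highest at 1.88. The lowest 2, Slc9a3r1 (−0.49) and Slc4a1ap (−0.41), carry the symbol but are cytosolic or nuclear adaptors, not carriers. Proteins named TMEM for predicted membrane spans had 18 of 63 at least 2-fold higher and a median of 0.84, with a median mRNA change of −0.0011.

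**Figure D3:**
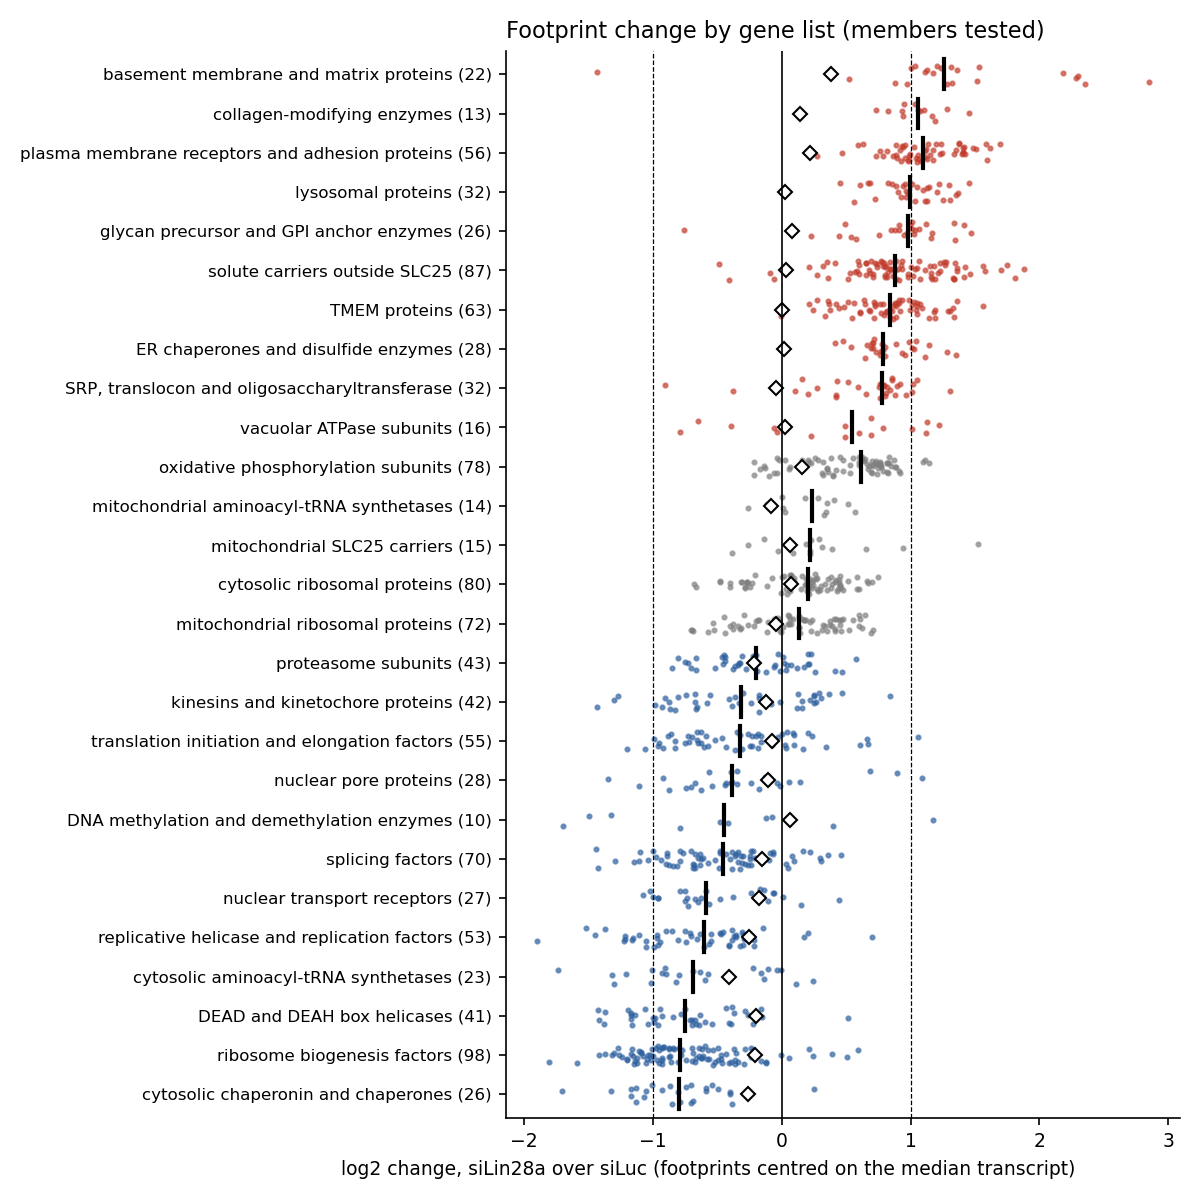
Centred footprint log2 change of every tested member (points) of 27 gene lists, with the list's median (black bar), its median mRNA change by column totals (white diamond) and the number tested in brackets; red lists are secretory or membrane, grey mitochondrial or ribosomal, blue nuclear or cytosolic. Red medians lie between 0.55 and 1.26, grey between 0.13 and 0.61 and blue between −0.79 and −0.20, while the mRNA medians lie between −0.41 and 0.38.

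Several assemblies have some members in or at a membrane or in the ER lumen and others elsewhere. These were divided by textbook location after the values had been seen. Where each protein is made was not checked, and peripheral members could be placed on either side. The vacuolar ATPase acidifies lysosomes with a membrane sector (V0) and a peripheral cytosolic sector (V1). Its 7 integral V0 and accessory subunits were all above 0 (0.49 to 1.22, median 1.01), while the 9 V1 and peripheral V0d subunits ran from −0.79 to 0.69 (median −0.04, 4 above 0). Atp6ap1, a membrane accessory subunit, had 147 and 295 CPM (1.22), and Atp6v1a, the catalytic V1 subunit, 89.4 and 44.6 CPM (−0.79). Their poly(A) levels were 56.3, 43.6 and 53.7 CPM for Atp6ap1 and 218, 233 and 236 CPM for Atp6v1a. The median mRNA change was 0.03 for the first set and 0.02 for the second.

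The nuclear pore showed the same division. Its 3 membrane-anchored proteins, Pom121, Nup210 and Tmem48 (Ndc1), had changes of 1.09, 0.90 and 0.68, above each of the other 25 pore proteins (−1.35 to 0.15, median −0.39, 23 below 0). Median mRNA changes were 0.21 and −0.12. Nup133, of the pore's outer ring, had 120 and 40.5 CPM of footprints (−1.35) with poly(A) levels of 330, 303 and 287 CPM. Of the ER targeting apparatus, 27 of 27 membrane or lumenal members were above 0 (0.21 to 1.31, median 0.80). By column totals the lowest of them, Srpr, lay just below 0. The median mRNA change was −0.01 for these and −0.20 for the cytosolic SRP. The 5 protein subunits of the SRP ran from −0.91 to 0.28 (median 0.10), and the lowest, Srp68, had 168 and 77.2 CPM with an mRNA change of 0.17.

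Glucose use divided likewise. The 3 plasma membrane transporters of the list, Slc16a3 (lactate export, 1.81), Slc2a3 (1.58) and Slc2a1 (1.46), were each at least 2-fold higher. The 16 cytosolic enzymes ran from −1.30 to 0.04 (median −0.42, 14 below 0), and their median mRNA change was 0.28, against 0.63 (0.43 to 0.83) for the transporters. Eno1, enolase, had 87.4 and 30.6 CPM of footprints (−1.30) against poly(A) levels of 90.6, 60.7 and 84.2 CPM. For 7 of the 16 enzymes the poly(A) tallies of the deposited tables differ by over 2-fold, so their mRNA changes are uncertain.

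**Figure D4:**
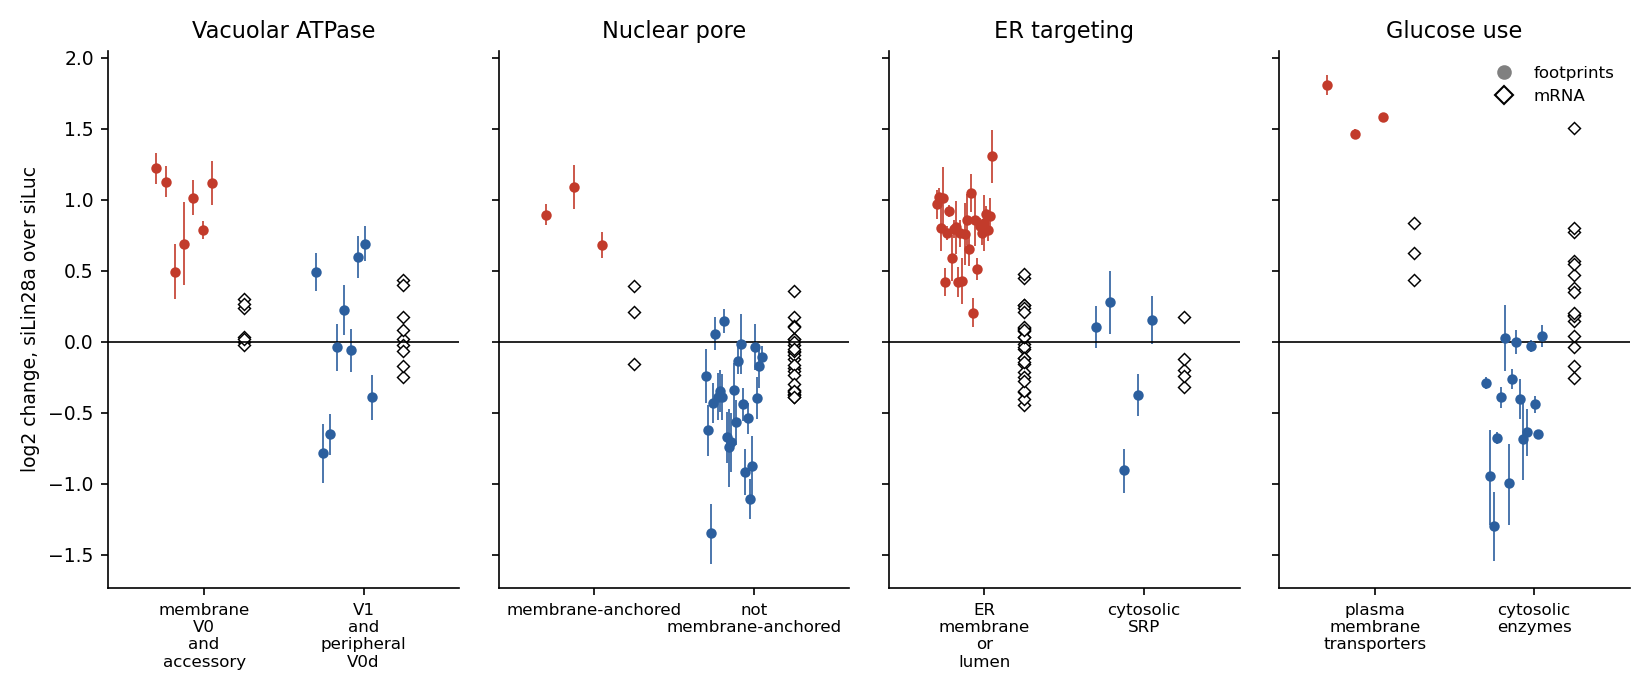
Log2 change of footprints (filled points, centred, with 95% counting intervals) and of mRNA (open diamonds, by column totals) for members of 4 assemblies, divided by location after the values were seen. The 40 members placed at a membrane or in the ER lumen (red) lie at 0.21 or higher. Of the 55 other members (blue), 44 lie below 0, while mRNA changes of both sides overlap. By column totals the footprint points lie 0.21 lower, which puts Srpr, the lowest red member, and more of the blue members below 0.

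Medians of the mitochondrial and ribosomal lists lay between those of the joined secretory and membrane lists (0.93) and the joined machinery lists (−0.57). They overlapped with single lists, since oxidative phosphorylation subunits (0.61) lay above vacuolar ATPase subunits (0.55). The counts past 2-fold in these lists are to be read against the 6323 tested, where 8.33% passed upwards and 4.14% downwards. By column totals these shares were 3.84% and 9.14%. Most mitochondrial SLC25 carriers are inserted into the mitochondrial inner membrane from the cytosol and not through the ER. Of 24 in the footprint table, 9 fell below 200 counts and 15 were tested. Of the 15, 1 passed 2-fold upwards, near the 8.33% share, and 0 downwards. Their median was 0.22, against 0.88 for the other solute carriers. The 1 exception, Slc25a20, the carnitine carrier, had 42.4 and 105 CPM (1.52, mRNA 0.84). Subunits of oxidative phosphorylation had 3 of 78 at least 2-fold higher (0 by column totals), 68 above 0 and a median of 0.61, with Cox6a1 (1.14) and Cox8a (1.11), both cytochrome oxidase subunits, highest. Cytosolic ribosomal proteins had 0 of 80 past 2-fold in either direction and a median of 0.20, and they held 13.1% of footprints with siLuc and 12.9% with siLin28a. Mitochondrial ribosomal proteins had 0 of 72 past 2-fold and a median of 0.13. By column totals the last 2 medians changed sign, to −0.01 and −0.08.

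Short coding sequences moved with the higher values in these lists. Among members with a coding length in the CLIP table, a limit of 600 coding bases, set after the values were seen, gave 47 of 47 short oxidative phosphorylation subunits above 0 (median 0.71) against 13 of 23 longer ones (median 0.05). For cytosolic ribosomal proteins it gave 36 of 37 (median 0.29) against 7 of 17 (median −0.11), and for mitochondrial ribosomal proteins 28 of 31 (median 0.19) against 12 of 36 (median −0.19). Rps28 (0.75) and Rpl4 (−0.68) marked the ends of the cytosolic ribosomal list. The median mRNA changes of short and longer members were 0.16 and 0.16, 0.07 and 0.02, and −0.01 and −0.11 in the same order. The 31 short members of the secretory and membrane lists had a median of 0.80 and the 327 longer ones 0.94, so within those lists short transcripts were not the higher ones.

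The machinery of the nucleus and cytosol was lower relative to the median transcript. Of 506 tested transcripts in the 12 lists, 82 passed 2-fold downwards and 3 upwards, with 429 below 0 and a median of −0.57. By column totals 161 passed downwards and 0 upwards, with a median of −0.78. Their median mRNA change was −0.19. They held 16.9% of footprints with siLuc and 10.3% with siLin28a. The 3 higher members were Tet2 (1.17), a DNA demethylation enzyme whose mRNA was also higher by 1.02, Pom121 (1.09), the pore membrane protein named above, and Eif2ak3 (PERK, 1.06), a kinase that spans the ER membrane. Of the 262 transcripts that were 2-fold lower, 82 (31.3%) were in these lists, and of the 527 higher ones 3 (0.57%) were. By column totals it was 161 of 578 lower and 0 of 243 higher. The lists held 506 of the 6323 transcripts tested.

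By column totals 9.14% of all transcripts were at least 2-fold lower. In these lists, ribosome biogenesis factors had 49 of 98, the helicases 19 of 41 and cytosolic aminoacyl-tRNA synthetases 11 of 23. Translation factors had 10 of 55, replication proteins 20 of 53 and DNA methylation enzymes 4 of 10. Cytosolic chaperones had 14 of 26, splicing factors 18 of 70 and nuclear pore proteins 4 of 28. Transport receptors had 6 of 27, and kinesins and kinetochore proteins 10 of 42. Proteasome subunits, with 2 of 43, lay below the share of all transcripts.

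Ribosome biogenesis factors, which process rRNA and assemble subunits in the nucleolus, had 28 of 98 at least 2-fold lower, 0 higher, 92 below 0 and a median of −0.79. Their median mRNA change was −0.21. Ncl, nucleolin, named after its value was seen, had 913 and 319 CPM of footprints (−1.30) with poly(A) levels of 3392, 4639 and 2971 CPM. The highest members, Nhp2l1 (0.59) and Nop10 (0.50), are short core proteins of small ribonucleoprotein particles; the 7 members of up to 600 coding bases had a median of 0.24 and the 91 longer ones −0.84. The DEAD and DEAH box helicases, many of which act in the same process, had 12 of 41 at least 2-fold lower and a median of −0.75. Ddx46 and Ddx21 were lowest, both at −1.42.

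Cytosolic aminoacyl-tRNA synthetases, which charge tRNAs for cytosolic ribosomes, had 6 of 23 at least 2-fold lower, 21 below 0 and a median of −0.69. Nars and Tars (−1.32) were lowest, and Mars (0.25) and the scaffold protein Aimp1 (0.11) were the 2 above 0. Their mitochondrial counterparts had 0 of 14 past 2-fold, 11 above 0 and a median of 0.23. The median mRNA changes were −0.41 and −0.08. Translation initiation and elongation factors had a median of −0.32, with 2 of 55 at least 2-fold lower, Eif3c (−1.20) and Eif4b (−1.06), a share near the 4.14% of all transcripts.

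Replication proteins had 12 of 53 at least 2-fold lower, 50 below 0 and a median of −0.60, with a median mRNA change of −0.26. Besides Mcm5 and Mcm4 they held Mcm6, the most counted, with 795 and 356 CPM (−0.94). Of the 10 tested enzymes of DNA methylation and demethylation, 3 were at least 2-fold lower: Dnmt3l, Dnmt3b and Uhrf1, the factor that brings Dnmt1 to hemimethylated DNA. Uhrf1 had 271 and 93.1 CPM (−1.33), while its poly(A) levels were 354, 289 and 299 CPM, an mRNA change of 0.05. Dnmt3b had 50.6 and 15.4 CPM (−1.50) with poly(A) levels of 134, 78.5 and 58.3 CPM, so its mRNA was already lower with siLuc than in untreated cells.

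Cytosolic chaperones had 9 of 26 at least 2-fold lower, 25 below 0 and a median of −0.79, whereas the ER chaperones described above had 28 of 28 above 0. The 1 member above 0 in the cytosolic list was Hspe1 (0.25), which is mitochondrial and not cytosolic. Hsp90aa1 and Hspa8, the cytosolic Hsp90α and the constitutive Hsp70, had 8091 and 3815 CPM (−0.87) and 8576 and 4537 CPM (−0.70). Hsp90ab1 had 6996 and 3494 CPM (−0.79, −0.81 to −0.76) against poly(A) levels of 6144, 6124 and 6456 CPM. Its ER relative Hsp90b1, at 0.80, lay on the other side of the median. The cytosolic chaperone list held 4.14% of footprints with siLuc and 2.10% with siLin28a, and the ER chaperone list 2.75% and 4.07%.

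Splicing factors had 7 of 70 at least 2-fold lower and a median of −0.45, with Hnrnpm lowest (−1.44); their 10 members of up to 600 coding bases, mostly Sm-type proteins, had a median of 0.19. Nuclear transport receptors had 3 of 27 at least 2-fold lower and a median of −0.59. Kinesins and kinetochore proteins had 3 of 42 at least 2-fold lower, where 4.14% of all transcripts were, and a median of −0.32. Ndc80 was lowest (−1.43, mRNA −0.90). Proteasome subunits had 0 of 43 past 2-fold, a median of −0.20 and a median mRNA change of −0.21.

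Pluripotency factors had members on both sides of a median of 0.05. Of 33, 4 were at least 2-fold higher and 2 lower, where 8.33% and 4.14% of all transcripts were. By column totals the median was −0.17, with 1 higher and 4 lower, where 3.84% and 9.14% of all transcripts were. Neither the direction nor the balance held across scalings, and the balance of all transcripts turned in the same way. Tdgf1 (Cripto), a GPI-anchored Nodal co-receptor, had 1190 and 2850 CPM of footprints (1.47, 1.44 to 1.51) against poly(A) levels of 346, 412 and 444 CPM. Gdf3, a secreted TGF-β ligand, had a change of 1.17 with an mRNA change of 0.23. Pou5f1 (Oct4), the core transcription factor, also named after its value was seen, had 1126 and 1194 CPM (0.30, mRNA 0.29). The lowest besides Lin28a was L1td1, an RNA-binding protein of stem cells, with 346 and 112 CPM (−1.41) and poly(A) levels of 620, 876 and 603 CPM. Dppa5a, an RNA-binding KH protein, had 3185 and 5530 CPM (1.01); its poly(A) tallies differ between tables.

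Known let-7 target mRNAs, which carry sites for the seed printed above, had 1 of 26 at least 2-fold higher and 1 lower, the latter Lin28a itself, shares near or below the 8.33% and 4.14% of all transcripts. By column totals 1 of 26 was higher and 7 were lower, where 3.84% and 9.14% of all transcripts were. Whether the lower count lies near the share of all transcripts thus depends on the scaling. The centred median was −0.28 and 17 were below 0, with a median mRNA change of −0.0027. Cdk6, a cyclin-dependent kinase, had 168 and 60 counts (−0.92), and Igf2bp1, an mRNA-binding protein, 578 and 273 CPM (−0.87), with mRNA changes of −0.24 and 0.07. The highest were the receptor genes Insr (34.1 and 83.4 CPM, 2.84-fold) and Igf1r (0.98), both also in the receptor list. Targets of the transcription factor ATF4 and the integrated stress response had a median footprint change of 0.03, which was −0.19 by column totals and also below 0 under each other count limit tried, and a median mRNA change of −0.52. Psat1, a serine synthesis enzyme, had 307 and 135 CPM (−0.97, mRNA −0.98), whereas Slc3a2, the heavy chain of amino acid transporters at the plasma membrane, had 874 and 1208 CPM (0.68, mRNA −0.60).

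The transcripts with the most footprint counts, a ranking by counts and not per length, followed the same classes in part. Of the 20, 13 were above 0, 6 at least 2-fold higher and 0 lower past that limit. Among all transcripts 8.33% were 2-fold higher and 4.14% lower. The 6 include Dppa5a (1.01), which is not a secretory or membrane protein, and Ppia, a cytosolic cyclophilin, was at 0.11. Together the 20 held 10.4% of footprints with siLuc and 11.7% with siLin28a. Besides Lamc1, Fn1, Hsp90b1 and the cytosolic chaperones the 20 held Eef1a1, the elongation factor, with 9845 and 5486 CPM (−0.63), and Actb, β-actin, with 4224 and 3522 CPM (−0.05). The metallothioneins Mt1 and Mt2, cytosolic zinc-binding proteins, were among the highest deeply counted transcripts, at 1.87 and 1.85. Their poly(A) levels were 312, 198 and 412 CPM and 318, 160 and 413 CPM, with mRNA changes of 1.06 and 1.37.

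Footprint and mRNA changes were related across transcripts, which are not independent replicates and which share the same libraries. Spearman's rho was 0.35 over 6322 transcripts, as a description. Of the 527 transcripts at least 2-fold higher in footprints, 439 had more mRNA with siLin28a, 32 by at least 2-fold. Of the 262 lower, 211 had less mRNA, 4 by at least 2-fold. Among all transcripts, mRNA passed 2-fold upwards in 56 (0.886%) and downwards in 27 (0.427%), so both sets lay above those shares. The mRNA change lay within 0.5 for 377 of the 527 and 211 of the 262. For all transcripts, the lowest quintile of mRNA change ended at −0.29 and the highest began at 0.28. The median mRNA changes of the 2 sets were 0.29 and −0.27. The 527 took 9.99% of footprints with siLuc and 20.8% with siLin28a, and the 262 took 4.24% and 1.61%.

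CLIP enrichment is the log2 ratio of a transcript's exon counts in LIN28A CLIP to those in untreated poly(A) RNA, by column totals, averaged over the 3 antibodies. None of these libraries entered the footprint comparison. Transcripts with the most CLIP enrichment had the higher footprint changes. From the lowest to the highest quintile of enrichment, the median footprint change was −0.16, −0.18, −0.10, −0.0034 and 0.56, and the share at least 2-fold higher was 1.33%, 3.75%, 5.08%, 9.49% and 21.0%. The median enrichment was 0.68 for the 2-fold higher transcripts, −0.65 for the 2-fold lower and −0.40 for all. Across 6007 transcripts Spearman's rho was 0.31 for footprint change and −0.32 for mRNA change, again as descriptions.

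The class of the protein and the enrichment overlapped without being the same. Members of the secretory and membrane lists had medians of 0.56, 0.91, 0.84, 0.91 and 0.94 over the 5 enrichment quintiles (17, 25, 37, 87 and 192 transcripts), and the other transcripts −0.16, −0.19, −0.11, −0.06 and 0.41. Secretory members were thus high in each quintile, while other transcripts were above 0 only in the highest. Mia3, an ER exit-site protein that loads collagen, had an enrichment of 2.36 and a footprint change of 1.04. Slc16a3, with an enrichment of −1.10 ± 0.18 (SD, n = 3), and Mt2, with −2.34 ± 0.37, had higher footprint changes of 1.81 and 1.85. The lists do not cover all such proteins: Aqp3, Ptgfrn and Atp2a3, for example, count among the other transcripts here.

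**Figure D5:**
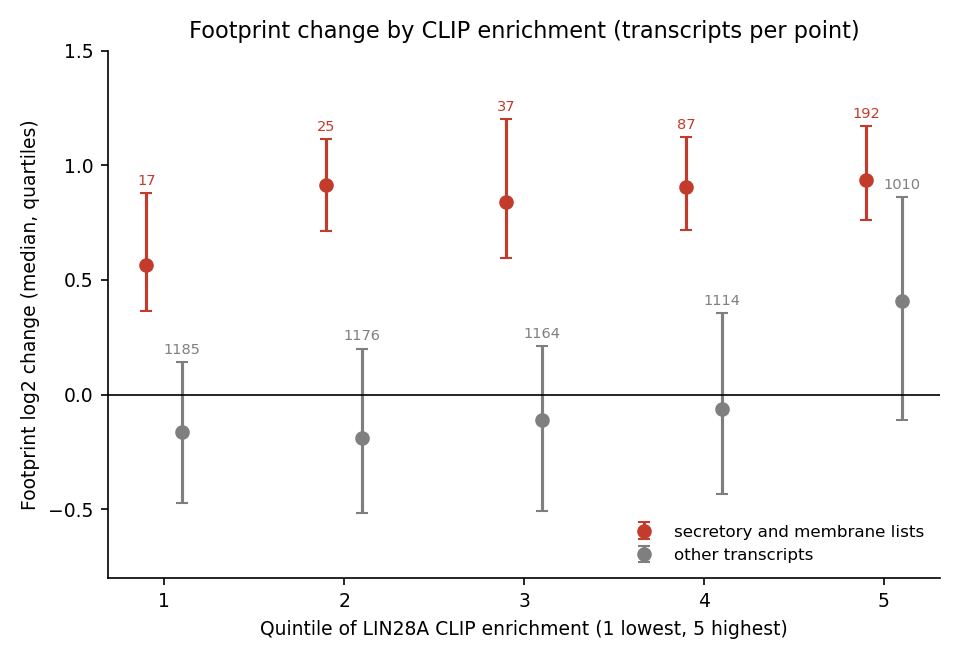
Median centred footprint log2 change (points) with quartiles (bars) by quintile of LIN28A CLIP enrichment, for members of the secretory and membrane lists (red) and other transcripts (grey), with the number of transcripts above each bar. The red medians lie between 0.56 and 0.94, and the grey ones between −0.19 and −0.06 in the first 4 quintiles and at 0.41 in the highest.

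Depth and coding length also varied with the footprint change. From the fewest to the most footprint counts, the median change by quintile was −0.09, −0.03, 0.01, −0.01 and 0.16. By coding length it was 0.21, −0.03, −0.16, −0.21 and −0.06, from the shortest quintile (up to 783 bases) to the longest. For the secretory and membrane lists the 5 length medians were 0.72, 0.88, 0.93, 0.85 and 1.12. The part of coding length, depth or library preparation in the changes was not tested, and with 1 library per condition any difference in preparation cannot be told apart from the siRNA.

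Markers of other cell types were read from the poly(A) table to check the label of an embryonic stem cell. The 10 stem cell markers were all detected and summed to 5406 CPM untreated, 5491 with siLuc and 6624 with siLin28a. Summed trophoblast markers were 17.7, 21.4 and 35.0 CPM, mesoderm 10.4, 15.7 and 32.0, neuroectoderm 111, 111 and 165, and fibroblast 197, 307 and 323. Each of these sums was highest with siLin28a, and in bulk samples more cells of a type and more RNA per cell cannot be told apart. Most of the fibroblast sum was Vim (153, 262 and 289 CPM), while Thy1 had 24.1, 23.3 and 10.6 CPM. The other fibroblast markers were low and went both ways. Most of the neuroectoderm sum was Otx2 (58.4, 52.7 and 86.9 CPM) and Tubb3 (42.1, 44.5 and 50.5 CPM). Endoderm markers summed to 784, 672 and 794 CPM, of which the matrix genes Lama1, Lamb1, Sparc and Col4a1 were the largest. Col4a2, another matrix gene, had 38, 47 and 223 poly(A) counts. Among the transcription factors and other regulators of endoderm, Gata4 had 3, 4 and 8 counts, Gata6 3, 0 and 3, Sox17 1, 5 and 7, Sox7 0, 8 and 4 and Foxa2 7, 6 and 4. Hnf4a had 6, 7 and 24, Dab2 17, 0 and 20 and Foxq1 1, 3 and 11, each highest with siLin28a. In footprints, 4 of the endoderm markers and 0 of the trophoblast or mesoderm markers were in the table. The smallest poly(A) count of any transcript there was 80, and each trophoblast and mesoderm marker had fewer with siLuc. Their absence therefore says nothing about their footprints. The part of these cell types in the changes was not tested.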

How the data were processed

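The deposited tables hold whole-read counts per RefSeq transcript, made by the authors; GSNAP, bedtools and the mouse build mm9 are named, without versions or roles, per the submitters' processing notes, and how reads were counted is not given in the sources used here. From the values, the poly(A) tallies of the footprint table followed the coding share of a transcript (a median of 37.8% of the exon tally where up to 20% is coding, and 95.1% where over 80% is), so its counts appear to cover coding sequence. Each symbol had 1 transcript. The analysis took only count columns, lengths and positions, leaving 27 other per-sample columns unused.

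Changes were computed in Python 3.11.15 (pandas 2.3.3) with a pseudocount of 0.5, and 95% exact Clopper-Pearson intervals (scipy 1.17.1) on the split of a transcript's counts between the libraries. They cover counting error only, and PCR duplicates make them too narrow. Centring on the median transcript was the main scaling; CPM by total, TMM (edgeR 4.0.16), size factors (DESeq2 1.42.0, R 4.3.3), other count limits and pseudocounts were alternatives. A change of at least 2-fold is a description, not a test. The scripts were tested on simulated data.

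The compared transcripts and the 42 gene lists were chosen with earlier results of these data known. Genes named are the 15 highest and lowest, the 10 highest and lowest with 2000 counts or more, the 20 most counted, and in each list the 2 highest, 2 lowest and 2 most counted; members of divided assemblies and genes said to be so were named after their values were seen. Transcripts whose siLuc poly(A) tallies differ over 2-fold between tables (389) or that share reads with near-identical copies (89) are uncertain. A planned division by hydrophobic protein segment was not run, since protein sequences were not used here.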

Additional observations from a re-analysis of the deposited data

How the results depend on the processing

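A scaling shifts every transcript alike, by at most 0.21 among those tried, so it cannot turn the direction of a transcript past 2-fold but can move it across that limit. The counts of transcripts at least 2-fold higher and lower, 527 and 262, stayed within 1.5 times with TMM, size factors, a pseudocount of 5, limits of 50 counts or none, and without transcripts of shared or differing tallies. They moved to 243 and 578 by column totals, to 228 and 152 with at least 1000 counts, and to 284 and 89 where the whole counting interval had to pass 2-fold; fewer transcripts or a stricter limit made the last 4 counts smaller by construction. By column totals 5 list medians changed sign: cytosolic ribosomal proteins −0.0104, mitochondrial ribosomal proteins −0.0817, pluripotency factors −0.17, stress response targets −0.19 and stem cell markers −0.0409. With at least 1000 counts pluripotency factors were at −0.0178, stress response targets at −0.0430 and interferon response genes at 0.36, and stress response targets were at −0.11 with 50 counts or no limit; the cause was not tested. No paired analysis was possible because each condition has 1 library and the labels carry no replicate numbers. At 200 to 300 counts the median counting interval reaches 0.39 either way, so smaller changes cannot be resolved there.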

Other observations

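Lists of other pathways moved little as groups, with single members that stood apart. Among all transcripts tested, 8.33% were at least 2-fold higher and 4.14% lower. Cholesterol synthesis and uptake genes had 1 of 23 at least 2-fold higher and 0 lower, with a median footprint change of 0.31 and a median mRNA change of −0.17. Within that list Npc1, a cholesterol exporter of the lysosomal membrane, was at 1.35 and Idi1, a soluble isomerase, at −0.77. Targets of p53 had 1 of 12 at least 2-fold higher, Ei24, an ER membrane protein, with 38.8 and 100 CPM of footprints (1.58, mRNA 0.64), and the cytosolic Gtse1 was lowest at −0.77 with an mRNA change of 0.30.

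Actin cytoskeleton genes had a median of −0.10 and 2 of 25 at least 2-fold lower, the intermediate filament protein Vim and the non-muscle myosin Myh9, both at −1.03, with mRNA changes of 0.14 and 0.09. Histone genes with poly(A) transcripts had 0 of 9 past 2-fold and a median of 0.30. Among 6 tested interferon response genes Stat2 was lowest (−1.28) and B2m, a secreted and surface protein, highest (0.83, mRNA −0.54). Acly, the cytosolic enzyme that makes acetyl-CoA, was the lowest transcript with 2000 counts or more after Mcm5, Dnmt3l and Mcm4, with 501 and 155 CPM (−1.48) and poly(A) levels of 1272, 1174 and 1018 CPM.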
